A study of Mus musculus with 7 samples.

Results

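The genes of 8 solute carrier (SLC) families that move amino acids, and in part peptides, creatine or related solutes, across membranes were examined in primary hepatocytes of mice lacking WDR6 and of WT mice. Members were the rows of the read-count table whose symbol matched one of the families SLC1, SLC3, SLC6, SLC7, SLC15, SLC36, SLC38 or SLC43, and 37 of the 14819 rows did. They hold 36 of the 68 protein-coding genes that RefSeq lists in these families, and the other 32 were not analysed here. The row *Slc7a6os* matched by its symbol only. It lies beside *Slc7a6* on the opposite strand and does not encode an SLC7 carrier, so it is given apart. All 37 rows passed the filter on expression and were tested.

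Free amino acids cross the hepatocyte membrane through carriers that either pull them in with sodium, swap one amino acid for another, or let them pass down their gradient. The liver takes up alanine, glutamine and other amino acids for gluconeogenesis, urea synthesis and protein synthesis. Carriers of the same families sit in lysosomes, where they return the products of protein breakdown to the cytosol and take part in amino acid sensing. Several genes of these families are known targets of ATF4, the transcription factor that cells make when amino acids run short or the endoplasmic reticulum is under stress.

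The WT group held 4 libraries and the WDR6-WKO group 3, from hepatocytes of male mice that carried either the intact gene or a CRISPR–Cas9 deletion within *Wdr6* in every tissue of the body. The cells were freed by collagenase perfusion, cultured overnight in medium with serum, and received no treatment in either group. The labels do not state the age of the donors or whether each library came from a mouse of its own, and p-values measure the spread between these libraries only. Because the deletion was present in the whole body, effects that arise in hepatocytes and effects that reach them from other tissues cannot be told apart, and in bulk RNA neither can fewer cells of a type and less RNA per cell.

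*Wdr6* itself had 49.0, 40.6, 40.9 and 45.6 CPM (read counts relative to the library total, after TMM scaling) in the WT libraries and 2.58, 2.32 and 2.23 CPM in the WDR6-WKO libraries, 5.39% of the WT mean (exact 2-sided permutation test, p = 0.0286, the smallest value that 35 assignments allow). Of 10 hepatocyte markers, *Alb* (7366 CPM in WT) and *Apob* (5845 CPM) were abundant, while *Tat* (1.502 CPM) and *Cyp3a11* (4.20 CPM) were low. Markers of Kupffer cells summed to 860–939 CPM in WT and 993–1191 CPM in WDR6-WKO libraries, and 3 of 12 were called higher. The marker sums were 315–363 and 295–352 CPM for endothelial cells (1 of 9 called lower), 675–733 and 718–783 CPM for stellate cells (2 of 9 higher, 1 lower), and 3068–3360 and 3713–4306 CPM for cholangiocytes (2 of 5 higher). The last sum was mostly *Spp1*. Of the other cholangiocyte markers, *Epcam* was at 0.849 CPM and *Krt7* at 3.10 CPM in WT. *Krt19* was at 148 CPM in WT and 143 CPM in WDR6-WKO libraries (not called), and *Sox9* at 82.9 and 95.2 CPM (called higher). Over all genes tested, 6.65% were called higher and 6.18% lower. None of 9 lymphocyte markers had a row, and of 4 neutrophil markers only *Csf3r* had one, at 1.77 CPM in WT. WDR6-WKO replicate 3 stood apart from the other 2 knockout libraries, with a chi-square per gene of 14.4 and 16.2 against them, compared with 3.84–8.34 among all other pairs of the same genotype. Leaving it out raised the genes called in the whole table from 1897 to 4233.

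Of the 37 members, 15 were called higher and 5 lower in WDR6-WKO hepatocytes, and 17 were not called (edgeR quasi-likelihood test, adjusted p under 0.05 over all 14779 genes tested). That was 54.1% of the members, against 12.8% of all genes tested. By direction it was 40.5% higher and 13.5% lower, against 6.65% and 6.18% of all genes. The median log2 fold change of the members was 0.15 (0.01 over all genes tested), and 25 of 37 had a positive value. In 19 members (51.4%) the levels of both genotypes did not overlap, 14 above and 5 below WT. Over all genes tested, 23.5% were separated in this way. With the thresholds that the study applied to its DEGs, a log2 fold change of 0.35 or more in size and an unadjusted p under 0.05, 10 members were higher and 1 lower (11 of 37, against 10.4% of all genes). Without WDR6-WKO replicate 3, all 20 called members were called again and *Slc7a6os* was added, 56.8% of the members, while the share of all genes tested that was called rose to 28.6%. Without WT replicate 2, 9 members were called higher and 4 lower, and without any one of the other 5 libraries 10–11 were called higher and 4–5 lower. These fits called 1032–1401 genes of the whole table, against 1897 with all libraries.

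**Figure D1:**
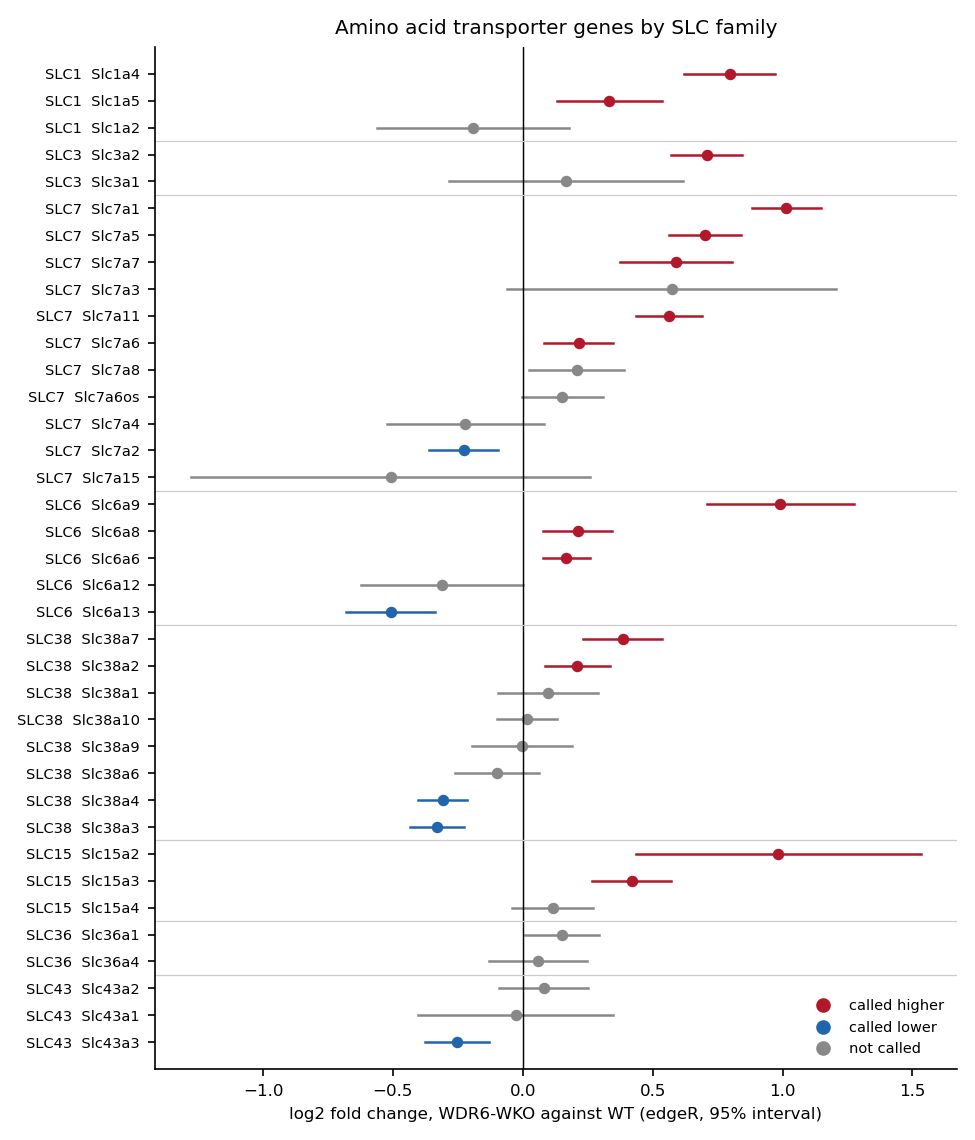
Log2 fold change of each transporter gene in WDR6-WKO against WT hepatocytes (horizontal axis) with its 95% interval from the edgeR fit, grouped by SLC family and ordered by size within each. Red genes were called higher (15), blue genes lower (5), and grey genes were not called (17, including *Slc7a6os*, which is no SLC7 carrier). The largest called increases were those of *Slc7a1*, *Slc6a9* and *Slc15a2*, and the largest called decrease was that of *Slc6a13*.

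The heteromeric transporters consist of a heavy chain of family SLC3, which brings the complex to the membrane, and a light chain of family SLC7, which carries the substrate. *Slc3a2* encodes CD98, the heavy chain shared by the light chains LAT1, LAT2, y+LAT1, y+LAT2 and xCT. *Slc3a2* (chr19:8706882-8723369, GRCm38) was at 142, 139, 134 and 134 CPM in WT and at 221, 251 and 200 CPM in WDR6-WKO libraries. Every knockout library lay above every WT library, and the mean rose from 137 ± 3.85 (s.d., n = 4) to 224 ± 25.7 CPM (n = 3), a log2 fold change of 0.71 ± 0.06 (s.e.; edgeR, adjusted p = 3.02e-06). The heavy chain of the renal cystine transporter, *Slc3a1*, was low in both genotypes, at 1.71–2.07 and 1.70–2.58 CPM, and was not called (adjusted p = 0.660). It shares 601 exonic bases with the neighbouring gene *Prepl*.

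Of the 5 CD98 light chains named above, 4 were called higher, against 6.65% of all genes tested. *Slc7a10*, which encodes a further CD98 light chain, was not analysed here. *Slc7a5* (chr8:121881150-121907694) encodes LAT1, which exchanges glutamine for leucine and other large neutral amino acids. It was at 74.8, 77.6, 68.7 and 68.8 CPM in WT and at 107, 124 and 123 CPM in WDR6-WKO libraries, a log2 fold change of 0.70 ± 0.07 (s.e.; edgeR, adjusted p = 3.25e-06). *Slc7a11* (chr3:49892526-50443614) encodes xCT, which imports cystine, the precursor of cysteine and glutathione, against glutamate. Its levels were 157, 162, 145 and 154 CPM in WT and 210, 226 and 250 CPM in the knockout, a log2 fold change of 0.56 ± 0.06 (s.e.; edgeR, adjusted p = 1.47e-05). The genotypes did not overlap for either gene.

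*Slc7a7* (chr14:54369442-54417780) encodes y+LAT1, which exports cationic amino acids in exchange for neutral ones together with sodium. It was at 11.9, 12.9, 11.5 and 13.9 CPM in WT and at 17.4, 21.4 and 17.8 CPM in WDR6-WKO libraries (log2 fold change 0.59 ± 0.10 (s.e.), edgeR, adjusted p = 0.00115). Part of its exons, 232 bases, is shared with *Oxa1l*, which had a log2 fold change of 0.08 (adjusted p = 0.389). *Slc7a7* is also made by macrophages, and the part of the Kupffer cell markers in its result was not tested. *Slc7a6*, encoding y+LAT2, was at 33.3, 33.5, 31.3 and 33.0 CPM in WT and at 39.3, 37.5 and 37.4 CPM in the knockout (log2 fold change 0.22 ± 0.06 (s.e.), edgeR, adjusted p = 0.0342). The genotypes were separate here too, but the increase was small, and the adjusted p was 0.0646–0.140 without any one library other than WDR6-WKO replicate 3 and 0.0689 with the replicate number as a block. *Slc7a8*, encoding LAT2, was at 29.1, 32.5, 37.5 and 36.5 CPM in WT and at 39.6, 36.2 and 41.7 CPM in the knockout. Its ranges overlapped and it was not called (log2 fold change 0.21, 95% interval 0.02 to 0.39, adjusted p = 0.128). *Slc7a6os* was at 28.3, 32.2, 29.5 and 30.2 CPM in WT and at 35.1, 34.4 and 30.5 CPM in the knockout, with overlapping ranges (log2 fold change 0.15, edgeR, adjusted p = 0.193). Without WDR6-WKO replicate 3 it was called, with a log2 fold change of 0.21 and an adjusted p of 0.0222.

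Levels of different genes were compared per length, as CPM per kb of exon. Summed over these 5 light chains, the level was 56.2–60.3 CPM per kb in WT and 78.5–87.2 CPM per kb in WDR6-WKO libraries, and over both heavy chains it was 45.1–47.9 and 67.2–84.0 CPM per kb. The light chains differed among themselves in level. In WT, *Slc7a5* was first with 20.6 ± 1.26 CPM per kb (s.d., n = 4) and *Slc7a11* second with 15.7 ± 0.734. *Slc7a6* (8.74 ± 0.269) and *Slc7a8* (8.30 ± 0.939) did not differ beyond their spread, and *Slc7a7* was last with 4.77 ± 0.403. In the knockout, *Slc7a5* reached 33.5 ± 2.68 and *Slc7a11* 23.2 ± 2.05 CPM per kb (s.d., n = 3).

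**Figure D2:**
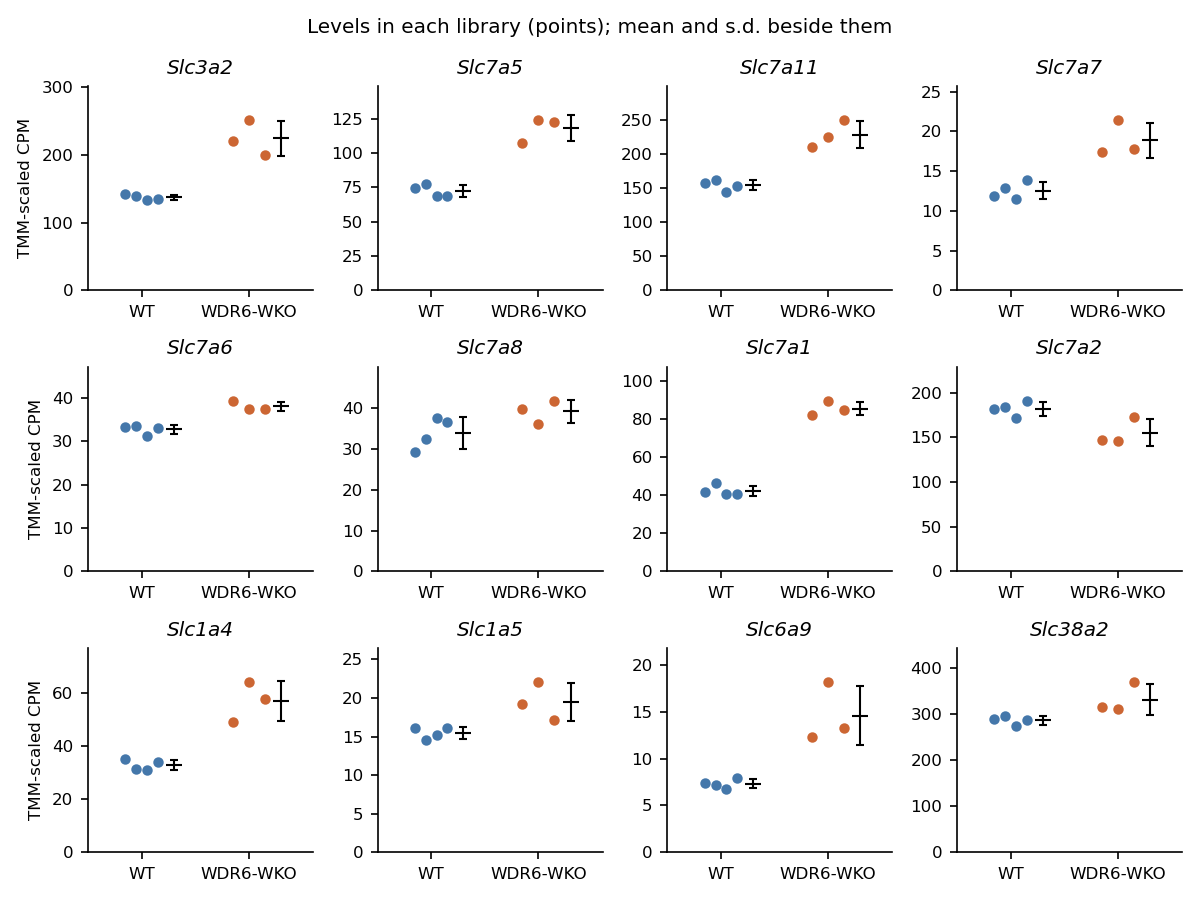
TMM-scaled CPM (vertical axes, each from 0) of 12 transporter genes in the 4 WT (blue) and 3 WDR6-WKO (orange) libraries, one point per library, with the mean and s.d. of each group in black. The knockout libraries lie above all WT libraries for *Slc3a2*, *Slc7a5*, *Slc7a11*, *Slc7a7*, *Slc7a6*, *Slc7a1*, *Slc1a4*, *Slc1a5*, *Slc6a9* and *Slc38a2*, and the groups overlap for *Slc7a8* and *Slc7a2*.

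The cationic amino acid transporters of family SLC7 work without a heavy chain and bring arginine, lysine and ornithine into the cell. The 2 main ones changed in opposite directions. *Slc7a1* (chr5:148327410-148399904) encodes CAT1, the high-affinity carrier found in most tissues and low in the resting liver. It was at 42.0, 46.4, 40.5 and 40.8 CPM in WT and at 82.5, 89.6 and 84.9 CPM in WDR6-WKO libraries, so that the lowest knockout library lay well above the highest WT library. The mean rose from 42.4 ± 2.69 (s.d., n = 4) to 85.7 ± 3.62 CPM (n = 3), a log2 fold change of 1.01 ± 0.06 (s.e.; edgeR, adjusted p = 5.88e-08), and it was the only member still called when the log2 fold change also had to reach 1 in size. *Slc7a2* (chr8:40862396-40922308) encodes CAT2, of which the liver makes a low-affinity form. It was at 182, 184, 172 and 191 CPM in WT and at 147, 146 and 173 CPM in the knockout, and WDR6-WKO replicate 3 overlapped the WT range. The decrease was 0.23 ± 0.06 on the log2 scale (s.e.; edgeR, adjusted p = 0.0250), and 0.31 without that library (adjusted p = 3.39e-06). Its call was lost, with an adjusted p of 0.0591–0.121, without WT replicate 1, 2 or 4 or without WDR6-WKO replicate 1 or 2, and with the replicate number as a block (0.0537).

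Per length, *Slc7a2* stood at 21 ± 0.914 and *Slc7a1* at 5.91 ± 0.375 CPM per kb in WT (s.d., n = 4). In the knockout the pair stood at 17.9 ± 1.77 and 11.9 ± 0.504 CPM per kb (s.d., n = 3). The order was kept while the distance between them narrowed. *Slc7a3*, a carrier of the same kind known mainly from neurons, was low at 0.524–1.12 CPM in WT and 1.04–1.34 CPM in the knockout (adjusted p = 0.223). The remaining SLC7 genes, *Slc7a4* (5.58–7.66 and 5.24–6.38 CPM) and *Slc7a15* (0.628–1.21 and 0.378–0.894 CPM), were not called either, with adjusted p-values of 0.335 and 0.386.

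In family SLC1, both neutral amino acid exchangers were called higher, as were 6.65% of all genes tested, and the glutamate carrier was not called. *Slc1a4* (chr11:20302180-20332713) encodes ASCT1, which exchanges alanine, serine, cysteine and threonine. Its levels were 34.9, 31.3, 30.9 and 33.8 CPM in WT and 49.1, 63.9 and 57.6 CPM in WDR6-WKO libraries. The groups were separate, with a log2 fold change of 0.80 ± 0.08 (s.e.; edgeR, adjusted p = 1.14e-05). *Slc1a5*, encoding the glutamine carrier ASCT2, was at 16.2, 14.5, 15.3 and 16.1 CPM in WT and at 19.3, 22.1 and 17.2 CPM in the knockout. The groups did not overlap, and the log2 fold change was 0.33 ± 0.10 (s.e.; edgeR, adjusted p = 0.0313). Without any one library other than WDR6-WKO replicate 3 the adjusted p of *Slc1a5* was 0.0516–0.187, and without that library it was 9.48e-04. *Slc1a2*, encoding the glutamate transporter GLT-1, was at 6.38–8.12 CPM in WT and 4.44–7.90 CPM in the knockout (log2 fold change -0.19, edgeR, adjusted p = 0.513).

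Promoter sequence was available in the RefSeq table (GRCm38.p6, 250 bases before to 50 bases after the start site) for 26 of the 37 members. It was searched on both strands for TGATGNAA, the core of the C/EBP-ATF response element through which ATF4 acts. The element was found in 4.51% of 27025 genes and in 3 members, *Slc7a11*, *Slc1a4* and *Slc7a7*, all of which were called higher. The more specific form TTGCATCA, on either strand, overlaps the first pattern and was found in 1.03% of genes and in the same 3 members. The 3 promoters are shown because they hold the element. They lie at chr3:50443564-50443863, chr11:20332664-20332963 and chr14:54417895-54418194, all on the minus strand, and are printed 5′ to 3′ with the matches in capitals.
Slc7a11: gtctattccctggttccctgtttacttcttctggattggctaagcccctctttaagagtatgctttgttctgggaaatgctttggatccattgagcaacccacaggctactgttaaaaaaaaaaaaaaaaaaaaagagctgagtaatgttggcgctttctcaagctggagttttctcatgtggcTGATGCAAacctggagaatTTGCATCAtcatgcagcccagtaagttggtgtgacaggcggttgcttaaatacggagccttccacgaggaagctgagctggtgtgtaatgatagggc
Slc1a4: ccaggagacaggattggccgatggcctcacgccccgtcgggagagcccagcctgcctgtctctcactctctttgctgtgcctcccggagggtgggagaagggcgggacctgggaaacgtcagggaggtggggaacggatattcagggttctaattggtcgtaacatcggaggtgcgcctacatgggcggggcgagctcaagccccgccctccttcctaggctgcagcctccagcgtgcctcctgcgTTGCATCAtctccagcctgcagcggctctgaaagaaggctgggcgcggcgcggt
Slc7a7: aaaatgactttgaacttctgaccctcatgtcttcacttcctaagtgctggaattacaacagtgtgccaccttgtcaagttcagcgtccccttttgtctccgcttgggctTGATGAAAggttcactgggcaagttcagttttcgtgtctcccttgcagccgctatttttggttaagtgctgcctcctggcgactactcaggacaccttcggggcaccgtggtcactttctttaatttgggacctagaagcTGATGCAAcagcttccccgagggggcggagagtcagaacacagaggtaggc
In *Slc7a11* the matches begin 66 and 47 bases before the start site, in *Slc1a4* 4 bases before it, and in *Slc7a7* 141 bases and 1 base before it. A second start site of *Slc7a7* gives a window that overlaps the one shown and holds the same match as its last. All other members that were called higher and had a promoter in the table had no match within these windows. They were *Slc3a2*, *Slc7a1*, *Slc6a9*, *Slc38a2*, *Slc7a6*, *Slc38a7* and *Slc15a2*. Whether the element goes with an increase was not tested.

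Family SLC6 comprises carriers driven by sodium and chloride. Of its 5 members, 3 were called higher and 1 lower, against 6.65% and 6.18% of all genes tested. *Slc6a9* (chr4:117834506-117875198) encodes the glycine transporter GlyT1. It was at 7.41, 7.23, 6.75 and 7.88 CPM in WT and at 12.3, 18.1 and 13.3 CPM in WDR6-WKO libraries, with a mean of 7.32 ± 0.467 (s.d., n = 4) against 14.6 ± 3.14 CPM (n = 3). All knockout libraries were above all WT libraries (log2 fold change 0.99 ± 0.13 (s.e.), edgeR, adjusted p = 1.37e-04). Of the exonic sequence of *Slc6a9*, 1429 bases are shared with *Ccdc24*, a gene not analysed here, and since the library kit does not mark strand, reads in them cannot be told apart by strand.

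Smaller increases were seen for the carriers of taurine and creatine. *Slc6a6*, the taurine transporter, was at 357, 353, 338 and 361 CPM in WT and at 398, 392 and 396 CPM in the knockout. The genotypes did not overlap, and the log2 fold change was 0.17 ± 0.04 (s.e.; edgeR, adjusted p = 0.0188). It was no longer called without WT replicate 2 or 3 or without WDR6-WKO replicate 1 (adjusted p = 0.0608, 0.0816 and 0.0720). *Slc6a8*, the creatine transporter, was at 126, 113, 112 and 111 CPM in WT and at 134, 145 and 123 CPM in the knockout, and WT replicate 1 overlapped the knockout range (log2 fold change 0.21 ± 0.06 (s.e.), edgeR, adjusted p = 0.0394). Its adjusted p was 0.109–0.199 without WT replicate 2, 3 or 4 or without WDR6-WKO replicate 1 or 2, 0.0569 with the replicate number as a block, and 1.92e-04 without WDR6-WKO replicate 3.

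*Slc6a13* (chr6:121300227-121337733), which encodes the hepatic carrier of GABA and taurine GAT2, changed in the other direction. It was at 20.6, 20.2, 21.9 and 21.3 CPM in WT and at 15.4, 14.2 and 14.6 CPM in WDR6-WKO libraries, without overlap, and fell by 0.51 ± 0.08 on the log2 scale (s.e.; edgeR, adjusted p = 5.98e-04). Its neighbour on the chromosome, *Slc6a12*, encodes the betaine and GABA transporter. It was at 4.49, 4.61, 4.63 and 4.22 CPM in WT and at 3.41, 4.02 and 3.41 CPM in the knockout. These groups did not overlap either, but the gene was not called (log2 fold change -0.31, 95% interval -0.62 to 0.00, edgeR, adjusted p = 0.178).

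Family SLC38, the sodium-coupled neutral amino acid transporters, was split, with 2 members called higher, 2 lower and 4 not called. Of all genes tested, 6.65% were called higher and 6.18% lower. The lower pair comprised the carriers best known from hepatocytes. *Slc38a4* (chr15:96994820-97055956), encoding the System A carrier SNAT4, was at 525, 555, 528 and 531 CPM in WT and at 425, 427 and 444 CPM in WDR6-WKO libraries. *Slc38a3* (chr9:107650634-107669530), encoding the System N glutamine carrier SNAT3, was at 127, 124, 129 and 124 CPM in WT and at 104, 99.1 and 98.1 CPM in the knockout. Neither gene had overlapping groups. The falls were 0.31 ± 0.04 for *Slc38a4* (s.e.; edgeR, adjusted p = 2.33e-04) and 0.33 ± 0.05 for *Slc38a3* (s.e.; edgeR, adjusted p = 3.51e-04) on the log2 scale. The hepatocyte markers moved in the same direction. Their summed level was 13570–16170 CPM in WT and 12480–14480 CPM in the knockout. All 10 had a negative log2 fold change (median -0.39), and 4 were called lower (*Apoa1*, *Cps1*, *Hnf4a* and *Asgr1*), against 6.18% of all genes tested. Their part in the lower carriers was not tested.

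*Slc38a2* (chr15:96687392-96699730) encodes SNAT2, the System A carrier that cells make more of when amino acids are scarce. It was at 288, 296, 273 and 287 CPM in WT and at 314, 310 and 369 CPM in WDR6-WKO libraries. The groups were separate, with WDR6-WKO replicate 3 well above the other knockout libraries, and the log2 fold change was 0.21 ± 0.06 (s.e.; edgeR, adjusted p = 0.0286). Without that library it was 0.12 (adjusted p = 0.0198). Leaving out any one WT library instead gave an adjusted p of 0.0563–0.103, and the replicate block gave 0.0543. *Slc38a7* (chr8:95835920-95853539), encoding a lysosomal exporter of glutamine and asparagine, was at 46.9, 46.8, 48.8 and 54.8 CPM in WT and at 61.0, 70.4 and 61.8 CPM in the knockout. Every knockout library was above every WT library (log2 fold change 0.39 ± 0.07 (s.e.), edgeR, adjusted p = 0.00211).

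Of the 4 SLC38 genes that were not called, *Slc38a9*, the lysosomal arginine sensor that acts on mTORC1, was at 22.2, 22.3, 19.7 and 24.0 CPM in WT and at 20.3, 21.2 and 24.7 CPM in WDR6-WKO libraries. Its log2 fold change had a 95% interval of -0.20 to 0.19. *Slc38a1*, encoding the System A carrier SNAT1, was at 20.2, 21.8, 22.6 and 22.5 CPM in WT and at 21.9, 21.3 and 26.9 CPM in the knockout (95% interval -0.10 to 0.29). *Slc38a10* was at 185, 170, 177 and 174 CPM in WT and at 184, 188 and 164 CPM in the knockout (-0.10 to 0.13). *Slc38a6* was at 26.1, 26.9, 25.3 and 27.6 CPM in WT and at 24.0, 23.3 and 26.9 CPM in the knockout (-0.26 to 0.06). The groups overlapped for all 4. Of the 50-base sequences of *Slc38a6*, 35.5% also occur in another annotated gene, mainly *Noct*, so its counts are uncertain.

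**Figure D3:**
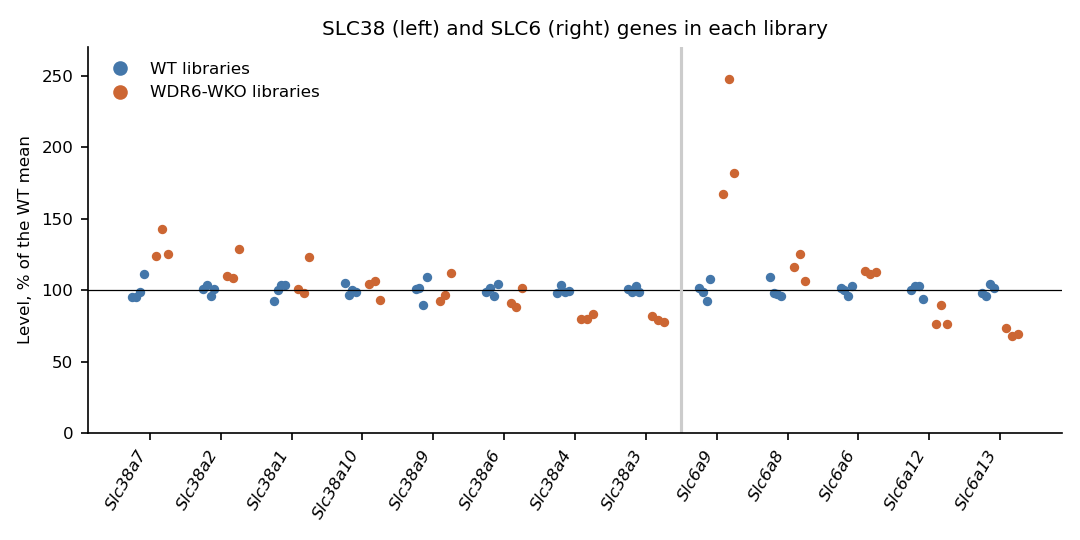
Level of each SLC38 gene (left of the grey line) and SLC6 gene (right) in the 4 WT (blue) and 3 WDR6-WKO (orange) libraries, as a percentage of the WT mean of that gene (vertical axis from 0, black line at 100). In both families genes moved in both directions, with *Slc6a9* farthest above the line and *Slc6a13* farthest below it.

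Ranked by CPM per kb, *Slc38a4* was the most abundant of the 37 members in both genotypes, with 130 ± 3.41 in WT (s.d., n = 4) and 105 ± 2.49 in WDR6-WKO hepatocytes (n = 3). Next in WT came *Slc38a2* (61.4 ± 1.98), *Slc6a6* (56.9 ± 1.66), *Slc3a2* (45.5 ± 1.27) and *Slc38a3* (35.4 ± 0.718). In the knockout *Slc3a2* was second (74.2 ± 8.50), ahead of *Slc38a2* (71.0 ± 7.06) and *Slc6a6* (63.9 ± 0.507). In the knockout the s.d. ranges of *Slc3a2* and *Slc38a2* overlapped, as did those of *Slc38a2* and *Slc6a6*, so neither order is settled. *Slc7a5* did not differ beyond its spread from *Slc43a3* in WT (20.6 ± 1.26 and 20.5 ± 0.320) or from *Slc6a8* in the knockout (33.5 ± 2.68 and 33.7 ± 2.76). With the length of the longest coding transcript in place of all exons, an alternative chosen after seeing the data, the order of the first 4 genes was the same in each genotype, while other places changed. *Slc38a10*, for example, was at 32.9 ± 2.34 CPM per kb in the knockout by the first length, beside *Slc7a5*, and at 39.0 ± 2.77 by the second. Summed over family SLC38 the level was 278–287 CPM per kb in WT and 260–272 CPM per kb in WDR6-WKO libraries. Family SLC7 without *Slc7a6os* had 83.9–90.4 and 109–122, and family SLC6 had 96.3–102 and 106–113. The sum over all 36 carriers was 579–599 CPM per kb in WT and 639–667 CPM per kb in the knockout.

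**Figure D4:**
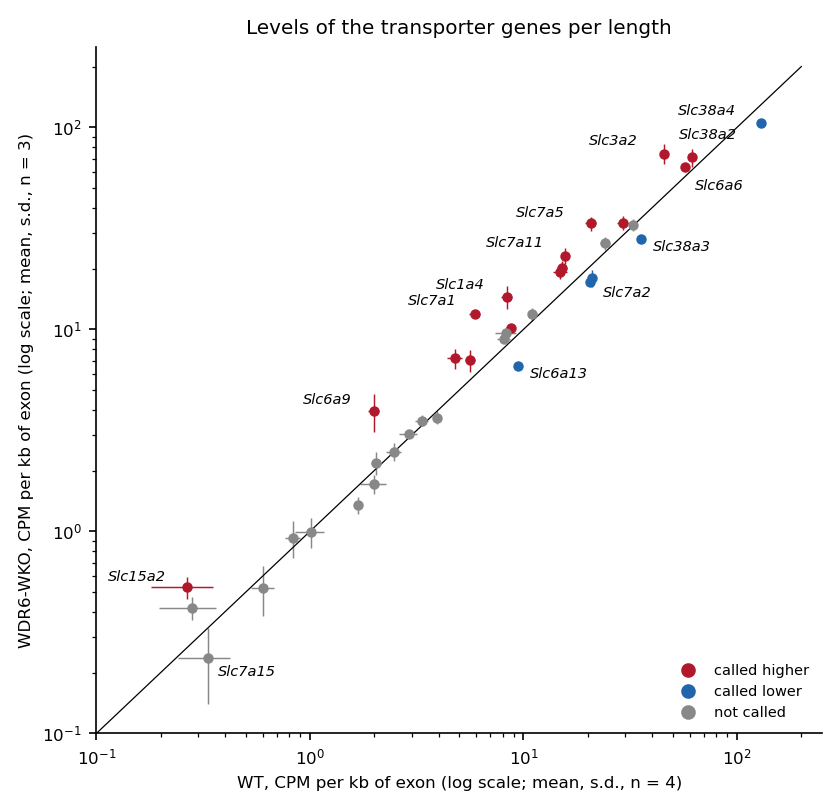
Mean level of the 37 members in CPM per kb of exon, WT (horizontal, n = 4) against WDR6-WKO (vertical, n = 3), both on log axes, with s.d. bars and a diagonal line of equal levels. Genes called higher (red) lie above the line and genes called lower (blue) below it. *Slc38a4*, at the top right, is the most abundant in both genotypes.

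The SLC15 carriers move dipeptides, tripeptides and histidine. *Slc15a3* (chr19:10839727-10859362) encodes a peptide and histidine carrier of endosomes and lysosomes that is best known from macrophages and other immune cells. It was at 36.5, 36.8, 36 and 32.6 CPM in WT and at 47.1, 51.5 and 43.6 CPM in WDR6-WKO libraries. The groups did not overlap (log2 fold change 0.42 ± 0.07 (s.e.), edgeR, adjusted p = 0.00107). The Kupffer cell markers moved in the same direction, with a median log2 fold change of 0.23 over 12 genes, 11 of them positive. *C1qb* (0.30), *C1qc* (0.48) and *Lyz2* (0.64) were called higher, while *Clec4f*, a defining marker, had 0.10 (edgeR, adjusted p = 0.311) and *Timd4* -0.49 (adjusted p = 0.0880). Their part in the *Slc15a3* result was not tested. *Slc15a3* also shares 1541 exonic bases with *Tmem132a*, which had a log2 fold change of 0.01 (edgeR, adjusted p = 0.969).

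*Slc15a2*, encoding the high-affinity peptide transporter PEPT2, was near the lower end of the table, at 0.756, 0.943, 1.595 and 1.155 CPM in WT and at 1.995, 2.13 and 2.51 CPM in WDR6-WKO libraries. The groups were separate (log2 fold change 0.98 ± 0.26 (s.e.), edgeR, adjusted p = 0.0200), and the adjusted p was 0.0588, 0.0610 and 0.0597 without WT replicate 1, WT replicate 2 and WDR6-WKO replicate 2. *Slc15a4*, the other endolysosomal carrier, was at 29.0, 32.1, 30.3 and 29.0 CPM in WT and at 34.2, 33.7 and 29.7 CPM in the knockout, and was not called (adjusted p = 0.333).

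In family SLC36, which includes proton-coupled carriers of small amino acids, neither member was called. *Slc36a1*, encoding the lysosomal carrier PAT1, was at 47.2, 43.3, 39.8 and 44.6 CPM in WT and at 48.5, 46.5 and 50.6 CPM in WDR6-WKO libraries (log2 fold change 0.15, 95% interval 0.01 to 0.29, edgeR, adjusted p = 0.159). *Slc36a4* had 16.3–20.5 CPM in WT and 19.1–20.4 CPM in the knockout (adjusted p = 0.730). In family SLC43, the sodium-independent carriers of large neutral amino acids were not called. *Slc43a2* (LAT4) was at 22.9, 22.5, 25.1 and 25.9 CPM in WT and at 27.3, 24.2 and 24.9 CPM in the knockout (adjusted p = 0.563), and *Slc43a1* (LAT3) had 3.03–4.32 and 3.07–4.25 CPM (adjusted p = 0.942). *Slc43a3* (chr2:84936579-84958509), which carries purine nucleobases rather than amino acids, was at 53.4, 52.1, 52.5 and 53.9 CPM in WT and at 43.8, 43.3 and 46.5 CPM in the knockout. It fell by 0.25 ± 0.06 on the log2 scale, without overlap (s.e.; edgeR, adjusted p = 0.00912).

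Read library by library, the 15 members called higher had median log2 levels, relative to the WT mean, of 0.02, 0.02, -0.06 and 0.01 in the WT libraries and of 0.44, 0.55 and 0.51 in the WDR6-WKO libraries. For the 5 members called lower the medians were -0.02 to 0.02 in WT and -0.31, -0.32 and -0.27 in the knockout. These medians describe the called members, which were chosen by the same contrast. Since that choice favours members alike in the knockout libraries, the medians cannot show whether WDR6-WKO replicate 3 stood apart in the transporters.

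Genes around the transporters were examined in 4 further lists. Of 12 tested carriers of amino acids outside the 8 families, mainly mitochondrial and lysosomal, 0 were called by edgeR, DESeq2 or limma-voom. Of all genes tested, edgeR called 12.8%. An unadjusted edgeR p under 0.05 was found for 3 of the 12 (*Slc16a10*, *Slc25a44* and *Sfxn1*) and for 4160 of all 14779 genes. Without WDR6-WKO replicate 3, 2 of the 12 were called higher and 3 lower by edgeR, in a fit that called 28.6% of all genes. Of 31 genes of amino acid sensing upstream of mTORC1, 2 were called higher and 2 lower (12.9%, near the 12.8% of all genes; median log2 fold change 0.04). Without WDR6-WKO replicate 3 the counts were 6 and 6 (38.7%), against 28.6% of all genes. *Sesn2*, the leucine sensor and an ATF4 target, rose by 0.59 ± 0.07 on the log2 scale (s.e.; edgeR, adjusted p = 4.31e-05), and the scaffold subunit *Lamtor3* rose by 0.19 (adjusted p = 0.0470). *Sesn3*, another sestrin, was lower by a log2 fold change of -0.34 (adjusted p = 0.00475), and *Castor1*, the arginine sensor, by -0.30 (adjusted p = 0.0462). The call of *Lamtor3* was lost with DESeq2 (adjusted p = 0.0622), with median-of-ratios factors (0.0529), with the replicate block (0.0941) and without any one library other than WDR6-WKO replicate 3 (0.0642–0.143). That of *Castor1* was lost with limma-voom (0.0556), with library totals alone (0.0669) and without WT replicate 1, 2 or 3 or WDR6-WKO replicate 1 or 2 (0.0617–0.145).

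The list of the amino acid response was made of the sensing kinase gene *Eif2ak4*, of *Atf4* and genes of its partners, and of its known targets apart from transporters. It had 18 of 21 genes called higher and 0 lower, against 6.65% and 6.18% of all genes tested. Earlier results of these data on such genes were known when the list was made, so this count is a description only. The median log2 fold change of the list was 0.67. No gene of the list had an unadjusted p under 0.05 in the lower direction, and DESeq2 and limma-voom called 0 lower as well. *Atf4* was at 195, 187, 178 and 177 CPM in WT and at 273, 310 and 269 CPM in WDR6-WKO libraries (log2 fold change 0.62 ± 0.06 (s.e.), edgeR, adjusted p = 3.25e-06). The serine and proline synthesis genes *Psat1* (0.96) and *Aldh18a1* (1.09), the mitochondrial folate enzyme *Mthfd2* (1.35) and the transcription factor *Atf3* (0.93) had the smallest p-values besides it. *Eif2ak4*, which encodes the kinase GCN2 upstream of ATF4, was not called (log2 fold change -0.09, adjusted p = 0.359), nor were *Cebpb* and *Pycr1*.

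For *Slc7a11*, which also responds to the transcription factor NRF2, 11 genes of the NRF2 and glutathione pathway were set beside it. Of these 2 were called higher and 2 lower, against 6.65% and 6.18% of all genes tested. The median log2 fold change of the 11 genes was 0.02. *Osgin1* (0.41) and *Srxn1* (0.20) were higher, while *Nfe2l2*, encoding NRF2 itself (-0.37), and *Gclc*, encoding the catalytic subunit of the first enzyme of glutathione synthesis (-0.28), were lower. *Srxn1* was not called without WDR6-WKO replicate 1 (edgeR, adjusted p = 0.0548).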

How the data were processed

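The authors sequenced RNA of primary hepatocytes, 4 libraries of WT and 3 of WDR6-WKO mice, on an Illumina instrument from a library kit that does not mark strand. Per the labels, reads were aligned with Bowtie2 2.2.3 to mm10. The deposited values are read counts per gene symbol, not normalized. The counting tool, its annotation and its strand setting are not given in the sources used here. Libraries held 17816913 to 23668940 counts, and between libraries of a genotype the biological coefficient of variation was 7.40%, so that counting error matters mainly for genes of a few CPM.

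From the counts, edgeR 4.0.16 in R 4.3.3 (TMM scaling, filter on expression, robust quasi-likelihood test) compared WDR6-WKO with WT over 14779 genes, with Benjamini-Hochberg adjustment and a threshold of 0.05. Levels are TMM-scaled CPM, and lengths are exon unions of GENCODE M21 (GRCm38). Overlap of annotated exons and shared 50-base sequences were computed from that annotation. The fit was tested on simulated data. Alternatives were DESeq2 1.42.0, limma-voom (limma 3.58.1), other scalings and filters, a replicate block, other thresholds and leaving out each library.

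The members and lists were chosen with earlier results of these data known. Every member is named, with values per library where it was called or had a mean of at least 20 CPM in either genotype. Of the other lists, at most 5 called genes per direction with the smallest p are named, besides single genes named after their values were seen (*Slc16a10*, *Slc25a44*, *Sfxn1*, *Eif2ak4*, *Cebpb*, *Pycr1* and the markers).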

Additional observations from a re-analysis of the deposited data

Results flagged for a closer look

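The levels of 51 groups of WT values were searched for a library far from the others, and chance flags about 1 in 20 of such groups. *Slc6a8*, the creatine transporter, had its highest WT level in WT replicate 1, at 125.9 CPM, with the other WT libraries at 110.8–113.1 CPM. *Srxn1*, of the NRF2 list, also had its highest WT level in WT replicate 1, at 314.0 CPM, with the others at 294.3–297.1 CPM.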

How the results depend on the processing

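Of the 20 called members, 13 (9 higher and 4 lower) were called under all alternatives that kept the threshold, and all 20 with DESeq2, limma-voom, median-of-ratios factors, library totals alone and either filter. The members called higher numbered 9–16 (main 15) and those called lower 4–5 (main 5) when each library was left out in turn. A log2 fold change that also had to reach 1 in size left 1 higher and 0 lower, and the thresholds of the study left 10 higher and 1 lower. Library totals alone turned *Slc38a9* to 0.023 (log2) and the replicate block to 0.038, and the block turned *Slc43a1* to 0.063, and the cause was not tested. Leaving out single libraries gave ranges that crossed 0 for 7 uncalled members: *Slc36a4* -0.008 to 0.097, *Slc38a9* -0.090 to 0.051, *Slc38a10* -0.022 to 0.071, *Slc43a1* -0.158 to 0.070, *Slc3a1* -0.017 to 0.304, *Slc1a2* -0.394 to 0.013 and *Slc38a1* -0.011 to 0.158. For the other carriers the counts over left-out libraries were 0–2 higher and 0–3 lower, for amino acid sensing 1–6 and 1–6, for the amino acid response 17–18 higher, and for the NRF2 list 1–3 higher. Amino acid sensing had 1 gene higher, not 2, with DESeq2, with median-of-ratios factors and with the replicate block. It had 1 lower, not 2, with library totals alone, and 3 lower with median-of-ratios factors or with at least 10 counts in every library. The cause of these changes was not tested. Whether the replicate numbers mark a pairing cannot be decided from correlations over all genes. Libraries of the same number deviated from their group means with correlations of 0.02–0.04, and WT replicate 1 correlated best with WDR6-WKO replicate 2 (0.117). With the number as a block, 12 members were called higher and 4 lower, *Slc7a2*, *Slc38a2*, *Slc7a6* and *Slc6a8* being lost, and *Wdr6* had -4.19. After seeing the data, members sharing over 5% of their 50-base sequences were left out, which gave 12 higher and 4 lower. Depth limits the least abundant members most, and *Slc7a15* had a 95% interval of -1.28 to 0.26.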
